A study of Homo sapiens with 2 samples.

Results

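The genes described here encode the proteins that license replication origins and copy DNA at the fork. They are 45 named genes, each found once by its symbol among the 37364 genes of the deposited table, and all 45 reached a mean of 1 RPKM over both libraries. RPKM is a level in reads scaled to transcript length and library total. The levels came from 2 RNA libraries of D407 cells, a human line that the labels describe as adult retinal pigment epithelium (RPE), made after enrichment on oligo(dT) beads. One library came from cells given clusterin, a secreted chaperone glycoprotein, and the other from control cells. Both came from the same line in serum-supplemented medium. The labels' protocols describe adding clusterin to nearly confluent cells for a viability assay, and the dose, duration and cell density behind the sequenced RNA are not stated there. With 1 library per group there was no replicate check, no test between the groups was made, and every interval below covers counting error only.

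The series asked which transcripts differ in these cells with and without clusterin. Recovered totals were 33177088 reads for the clusterin library and 38236994 for the control. Neither library had a value above 0 for 6 of 10 RPE markers (RPE65, RLBP1, LRAT, TTR, RGR and TYR), and MITF and BEST1 were the 2 that reached a mean of 1 RPKM. The 10 summed to 12.7 RPKM with clusterin and 13.0 in the control. Of 6 epithelial markers, 4 reached a mean of 1 RPKM, all of them keratins (KRT7, KRT8, KRT18 and KRT19), while EPCAM was listed at 0 in both libraries and CDH1 stood at 0.025 RPKM with clusterin and 0.016 in the control. These 6 summed to 1003 RPKM with clusterin and 985 in the control. Genes whose mean over both libraries reached 1 RPKM, 13244 in all, are called measured genes here. Across them, the median RPKM ratio of clusterin over control was 0.953, a general offset that most genes shared.

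Replication begins with the origin recognition complex (ORC), which marks origins. CDC6 and CDT1 then load the ring-shaped MCM2-7 helicase, and geminin (GMNN) blocks CDT1 once S phase has begun. CDC45 and the GINS complex turn the loaded ring into an active helicase. DNA polymerase alpha-primase starts each strand, and polymerases epsilon and delta extend them with the sliding clamp PCNA, its loader RFC and the single-strand binding protein RPA. Transcription of many of these genes is known to be driven by E2F factors as cells enter S phase.

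Some of these genes' promoters held a motif that the choice of members did not use. RefSeq promoter sequences (GRCh38.p14, 250 bases before to 50 after the annotated start) matched 39 of the 45 by symbol, and 19 of the 39 (48.7%) held an exact E2F-type motif on either strand. The letters searched were TTTCCCGC, TTTGGCGC, TTTCGCGC and TTTGCCGC. Some genes have several annotated starts. Counted by sequence, 19 of the members' 51 promoters (37.3%) held the motif, against 3.32% of all 35097 in the table. Counted by gene, 7.02% of the 8051 measured genes that matched the table by symbol held it. All 4 helicase subunits in the promoter table held the motif (MCM2, MCM3, MCM6 and MCM7), as did all 3 loading factors and the 3 GINS genes present. Of the 6 ORC genes, 1 held it (ORC3), and neither POLD1 nor POLD2, the polymerase delta genes in the table, held it. Of 55 other measured genes of replication and its control that were in the promoter table, 16 held the motif. A match describes these letters and does not show binding, and a lack of these exact letters does not show that an E2F site is absent.

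Stretches around 13 of the matches are given to show the bases that flank the motif in genes of different complexes. The motif itself is alike because it was searched for by exact letters. Each reads 5′ to 3′ on the strand that holds the motif as listed, and the capitals mark the motif.
MCM2, chr3:127598403-127598430, plus strand: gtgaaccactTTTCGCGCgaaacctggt
MCM3, chr6:52284729-52284756, minus strand: gttcggaagtTTTCGCGCcggggtggag
MCM6, chr2:135876516-135876543, minus strand: attggtcaggTTTGGCGCgaaatctcca
MCM7, chr7:100101389-100101416, minus strand: gggggcgacgTTTCGCGCcaatttcggt
CDC6, chr17:40287876-40287903, plus strand: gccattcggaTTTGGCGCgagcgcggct
CDT1, chr16:88803744-88803771, minus strand: tcccgccaaaTTTCCCGCgggcgccctg
GMNN, chr6:24775323-24775350, plus strand: ctgggtcggtTTTGGCGCgctctcactt
GINS1, chr20:25407668-25407695, minus strand: cgctccgcgcTTTGGCGCcgaacaaagc
GINS2, chr16:85688968-85688995, plus strand: cggccgccgtTTTCCCGCcacggcgaga
POLA1, chrX:24693771-24693798, minus strand: cggacgcgcgTTTGGCGCcctgtgatga
POLE2, chr14:49688202-49688229, plus strand: atatttgcgaTTTGGCGCcaccgccgca
PCNA, chr20:5126664-5126691, plus strand: acgcacgcctTTTCCCGCccctgacgct
TYMS, chr18:657604-657631, minus strand: ccgcgcgcctTTTCCCGCggccgtcccg
Of the 25 matches, 19 lay between 100 bases before and 20 after the annotated start. In MCM2 and MCM6, matches on the opposite strands overlapped and were counted separately. The MCM2 site reads the same on both strands, and the MCM6 sites read nearly the same.

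**Figure D1:**
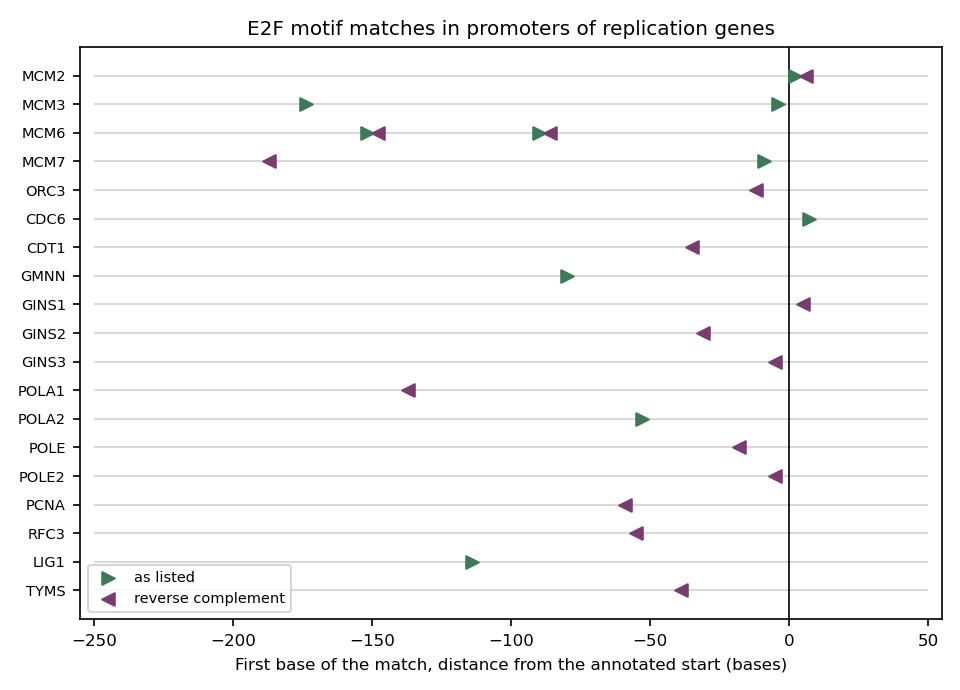
Position of each exact E2F motif match (x axis, bases from the annotated start at 0) in the 19 promoters of replication genes that held one. Right-pointing triangles are matches as listed and left-pointing ones are reverse complements. Most matches lie close to the start, and MCM6 carries overlapping pairs at 2 places.

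Whole promoter windows are given for POLE2, the gene with the largest difference between the libraries, for RFC3, the gene with a motif whose difference was highest, and for MCM6, which held the most matches. Each reads 5′ to 3′ along the gene, with E2F motifs in capitals.
POLE2 promoter, chr14:49688165-49688464, minus strand: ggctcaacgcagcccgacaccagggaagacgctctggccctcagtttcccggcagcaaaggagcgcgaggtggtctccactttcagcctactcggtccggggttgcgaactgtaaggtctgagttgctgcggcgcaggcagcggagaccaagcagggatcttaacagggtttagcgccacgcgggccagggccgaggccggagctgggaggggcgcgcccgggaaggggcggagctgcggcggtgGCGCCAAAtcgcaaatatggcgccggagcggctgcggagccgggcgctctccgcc
RFC3 promoter, chr13:33817899-33818198, plus strand: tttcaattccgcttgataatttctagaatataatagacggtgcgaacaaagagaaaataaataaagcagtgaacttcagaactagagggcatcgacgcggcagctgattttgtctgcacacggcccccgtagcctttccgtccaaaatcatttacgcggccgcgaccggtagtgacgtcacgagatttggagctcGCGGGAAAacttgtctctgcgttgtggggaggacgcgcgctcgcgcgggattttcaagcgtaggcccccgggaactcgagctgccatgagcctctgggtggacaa
MCM6 promoter, chr2:135876394-135876693, minus strand: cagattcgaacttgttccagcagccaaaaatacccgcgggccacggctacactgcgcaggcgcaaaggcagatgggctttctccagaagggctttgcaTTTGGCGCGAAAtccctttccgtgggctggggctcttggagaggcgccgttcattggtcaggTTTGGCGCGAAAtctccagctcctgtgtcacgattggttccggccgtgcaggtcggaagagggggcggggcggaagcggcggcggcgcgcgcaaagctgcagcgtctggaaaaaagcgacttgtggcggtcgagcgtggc
Genes with and without the motif overlapped in their difference between libraries. The 19 genes with it had a median log2 difference of -0.04, between -0.34 (POLE2) and 0.04 (RFC3), and the 20 without it had a median of -0.09, between -0.21 (ORC2) and 0.04 (POLD1). The log2 difference is log2((clusterin RPKM + 1)/(control RPKM + 1)) throughout. Their levels overlapped too, with medians of 22.6 RPKM with clusterin and 22.1 RPKM in the control for genes with the motif, and of 13.3 RPKM with clusterin and 14.5 RPKM in the control for those without. Other promoter motifs were also counted by gene, on both strands. CCAAT, the NF-Y box, was in 23 of the 39 (59.0%), against 43.8% of measured genes. The GC box GGGCGG was in 29 of the 39 (74.4%), against 78.6%. The cell cycle homology motifs TTTGAA and TTCGAA were in 3 of the 39 (7.69%), against 14.9%. Among all promoter sequences in the table, CCAAT was in 34.6%, the GC box in 44.9% and the cell cycle motif in 16.4%.

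Most replication genes were well expressed in both libraries. Their levels had a median of 15.2 RPKM with clusterin and 17.1 RPKM in the control, and 38 of the 45 lay above the median level of measured genes, 5.75 RPKM. At the top stood RRM1, the large subunit of ribonucleotide reductase, followed by PCNA, MCM7 and MCM2, each with a mean above 100 RPKM. At the bottom stood ORC4 and POLE2, so the highest mean was 179 times the lowest on the per-length scale. The level of ORC4 rests on a recovered length of 7039 bases. The order of the genes was nearly the same in both libraries, and no gene moved by more than 3 places. Across these genes, which share both libraries and their depth, Spearman's rho of the levels was 0.997 (45 genes). Levels spread this widely give a rho near 1 when differences are small, and rho over all measured genes was not set beside it.

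**Figure D2:**
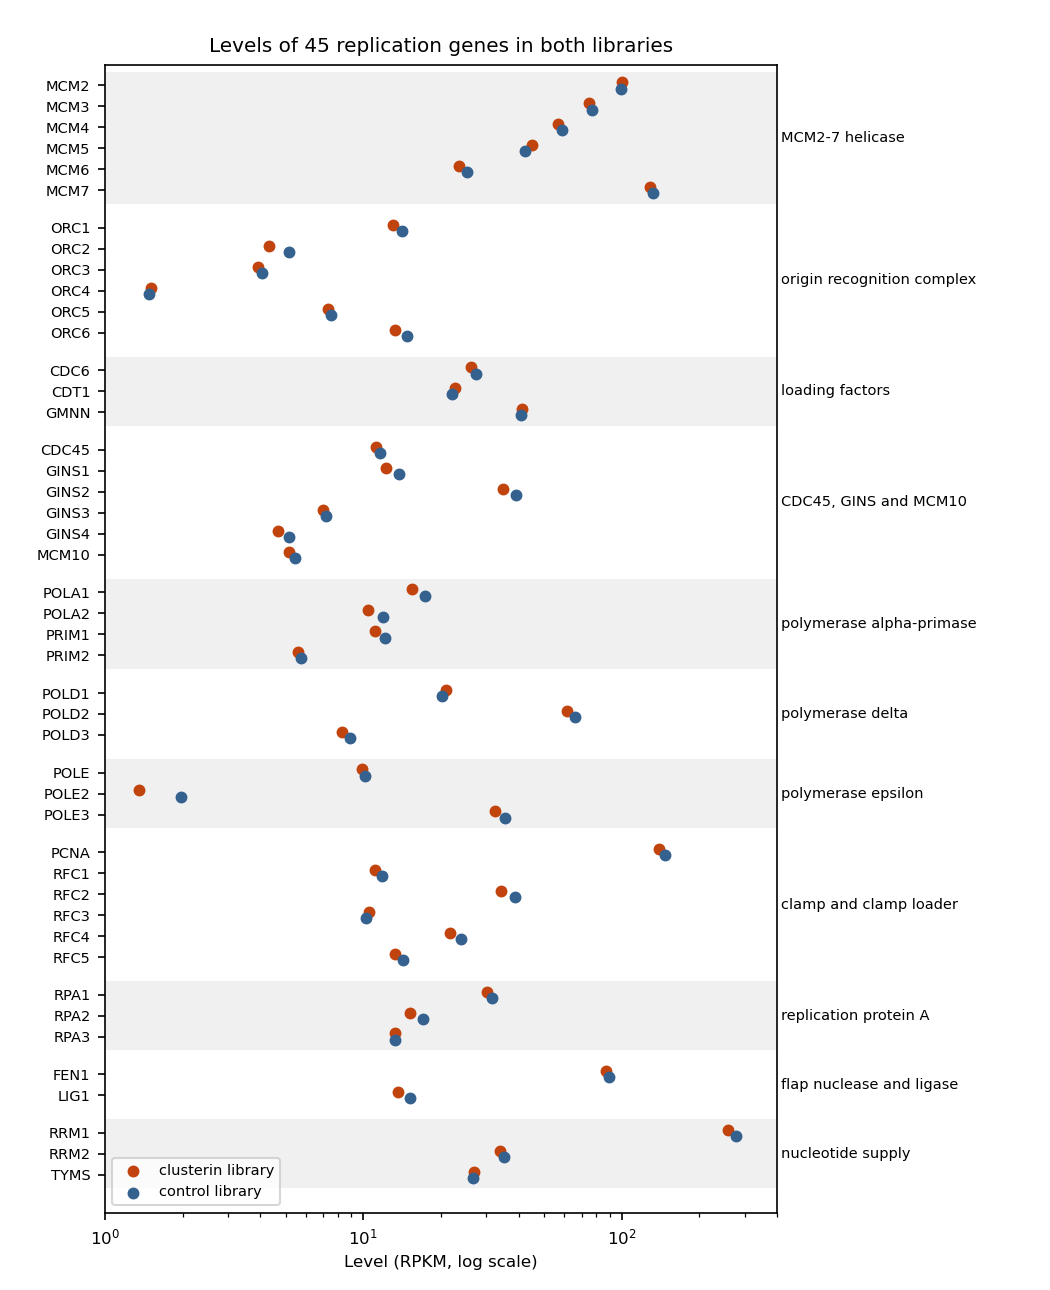
Level of each of the 45 replication genes in RPKM (log axis), grouped by complex, with the clusterin library in orange and the control library in blue, 1 library each. POLE2 and ORC4 lie lowest and RRM1 highest, at 258 RPKM with clusterin and 277 RPKM in the control, and the 2 points of a gene lie close together.

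The difference between the libraries was small for this pathway. None of the 45 genes passed 2-fold, a size that 0.219% of measured genes passed. One, POLE2, was lower with clusterin by more than 0.32 on the log2 scale, where 3.29% of measured genes were, and none was higher by that much, where 1.36% were. The members lay below 0 in 36 of 45 cases (80%), against 70.2% of measured genes, and 25 of 45 lay below the median of all measured genes. Their median log2 difference was -0.07, against -0.06 for all measured genes, and it was -0.01 with 24 of 45 below 0 when the clusterin values were rescaled so that the median RPKM ratio of measured genes was 1. With this rescaling 12 genes changed sign, each of them within 0.07 of 0 as deposited. They were MCM3, MCM4, MCM7, ORC3, ORC5, CDC45, GINS3, PRIM2, POLE, RPA1, FEN1 and RRM2. Of the 45, 37 lay within 0.1 of the median of all measured genes on the log2 scale (82.2%), against 62.4% of measured genes. The members' levels were higher than those of most measured genes, and the part of level in this share was not tested. In bulk RNA, fewer cells in S phase and less of each transcript per cell cannot be told apart.

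Reads were recovered for all 45 genes, from 234 reads over both libraries for POLE2 to 61064 for RRM1. The 95% counting interval of the RPKM ratio lay wholly below 1 for 21 genes and wholly above 1 for 1, MCM5. Of the measured genes with recovered reads, 25.9% lay wholly below 1 and 4.33% wholly above, and of the 11366 with at least 234 reads, 28.7% and 4.55% did. Deep genes have narrow intervals, so the shares were also set side by side within depth. Of the 4 replication genes with under 1000 reads, 1 lay wholly below 1 (25%), against 17.6% of measured genes with 234 to 1000 reads, and of the 15 with 1000 to 3000 reads, 5 did (33.3%), against 27.8%. Of the 18 with 3000 to 10000 reads, 9 did (50%), against 41.4% of all genes in that range, and of the 8 deeper ones, 6 did (75%), against 62.3%. Against the general offset of 0.953 in place of 1, 6 genes lay wholly below and 5 wholly above, where 11.3% and 12.9% of genes of at least this depth did. Those below were POLE2, ORC2, GINS1, POLA1, RFC2 and RRM1, and those above were MCM2, MCM5, MCM7, CDT1 and POLD1. MCM7 was above by little, its interval starting at 0.9530 against an offset of 0.9526. In the authors' deposited table, 14 of the 45 had q below 0.05 and were lower, against 10.4% of genes above 0 and 14.6% of measured genes. Another 1 with q below 0.05 in the authors' deposited table was higher, against 1.63% and 1.99% in the same order. A q-value there sets 1 library against the other and carries no spread between replicates. Unlike the interval shares, these q shares were not set side by side within depth.

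**Figure D3:**
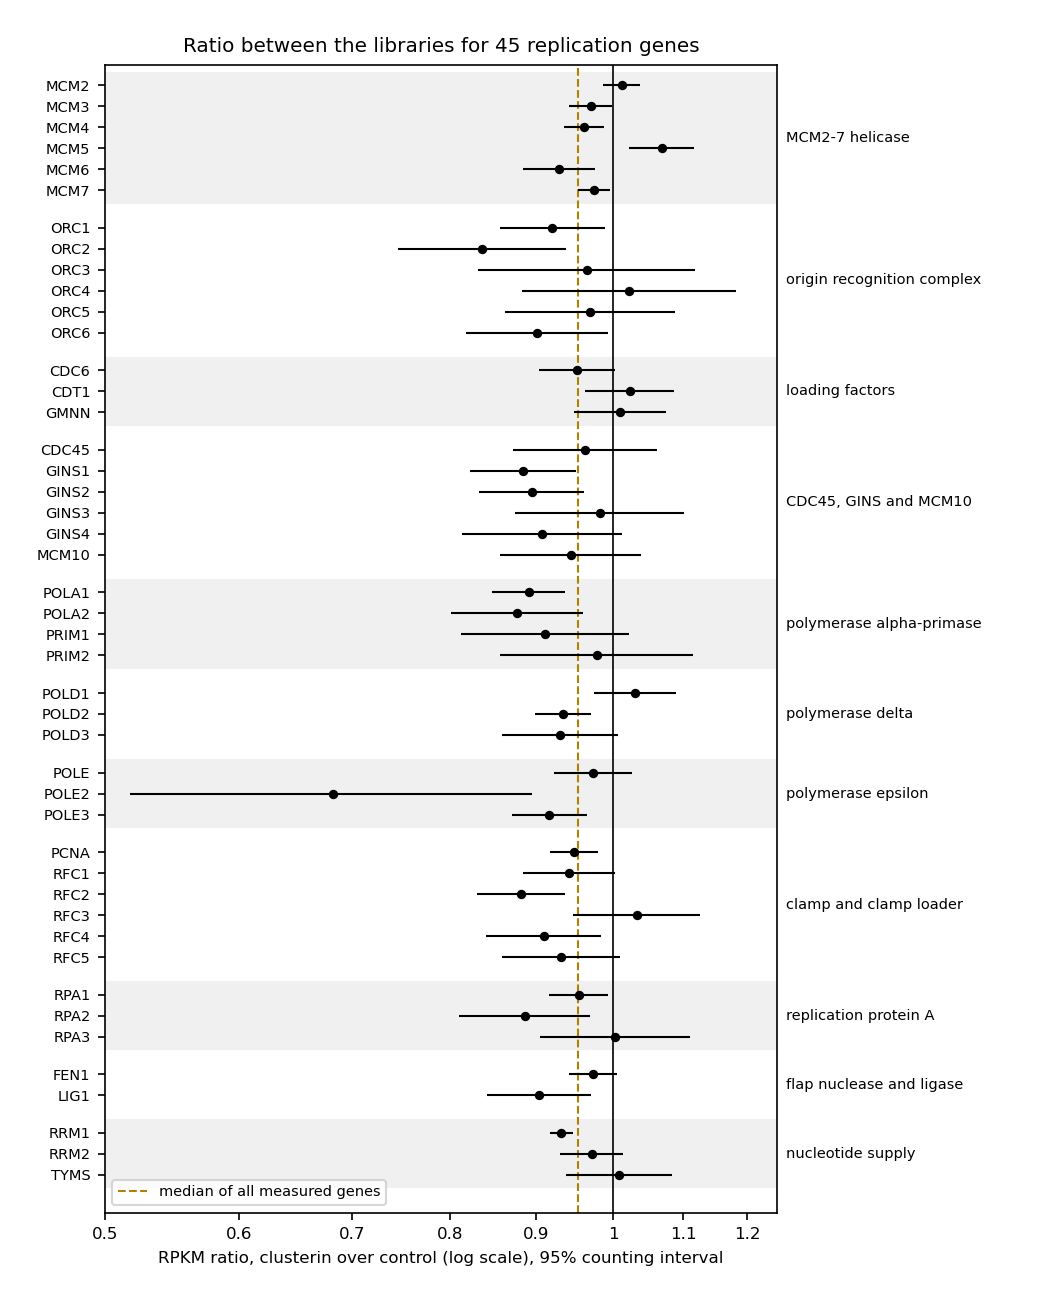
RPKM ratio of clusterin over control (log axis) for the 45 replication genes by complex. Points are ratios, bars are 95% counting intervals, the solid line marks 1 and the dashed line marks the median of all measured genes, 0.953. POLE2 lies farthest left with the widest bar, and MCM5 is the gene whose bar lies wholly right of 1.

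Licensing begins with ORC, whose subunits stood at unequal levels. ORC1, ORC5 and ORC6 lay above the median level of measured genes, and ORC2, ORC3 and ORC4 below it. ORC6 stood at 13.3 RPKM with clusterin and 14.8 in the control, and ORC1, which has the ATPase activity needed for loading, at 13.0 RPKM with clusterin and 14.1 in the control. ORC5 stood at 7.27 RPKM with clusterin and 7.50 in the control ORC3 at 3.91 RPKM with clusterin and 4.06 in the control, and ORC4 at 1.51 RPKM with clusterin and 1.479 in the control. The highest subunit was thus 8.82 times the lowest with clusterin and 10.0 times in the control, on the per-length scale. This spread depends on the recovered lengths, 7039 bases for ORC4 and 2572 for ORC3. Reads of ORC4 and ORC3 were similar, 353 and 334 with clusterin and 398 and 399 in the control. ORC2 was the member with the largest difference in the complex and the next lowest of the 45 after POLE2. It stood at 4.32 RPKM with clusterin and 5.16 in the control, based on 523 and 721 reads. It had a log2 difference of -0.21 and an RPKM ratio of 0.836 (0.746 to 0.937). ORC2 was also among the genes whose interval lay wholly below the general offset.

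The loading factors differed little. CDC6 stood at 26.0 RPKM with clusterin and 27.4 in the control, with a ratio of 0.952 (0.904 to 1.003). CDT1 stood at 22.6 RPKM with clusterin and 22.1 in the control, a log2 difference of 0.03, and geminin, its inhibitor, at 41.2 RPKM with clusterin and 40.8 in the control, a log2 difference of 0.01. Geminin thus stood 1.82 times as high as CDT1 with clusterin and 1.84 times in the control. As a group these 3 were the only complex with a median log2 difference above 0 as deposited, 0.01, which became 0.08 with the rescaling.

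Helicase subunits stood high, with 5 of 6 above the 90th percentile of measured genes, 34.8 RPKM, and MCM6 below it. MCM7 stood at 128 RPKM with clusterin and 132 in the control, and MCM2 at 101 RPKM with clusterin and 99.6 in the control. MCM3 stood at 74.6 RPKM with clusterin and 76.9 in the control, and MCM4 at 56.6 RPKM with clusterin and 58.9 in the control. The lowest subunit was MCM6, at 23.4 RPKM with clusterin and 25.2 in the control. MCM7 thus stood 5.49 times as high as MCM6 with clusterin and 5.23 times in the control. These are RNA levels, and the amounts of the proteins, which form a ring of equal parts, were not measured. MCM5 was the highest of the 45 by difference. The level was 45.01 RPKM with clusterin and 42.1 in the control, on 3802 and 4102 reads in libraries of unequal size, with a log2 difference of 0.09 and a ratio of 1.07 (1.02 to 1.12). The reads of all 6 subunits gave a ratio of 0.983 (0.971 to 0.995), below 1 and above the general offset, and the median log2 difference of the subunits was -0.04 as deposited and 0.03 rescaled, so its direction depends on the scaling.

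MCM7 carries 3 microRNA genes within its span on the same strand, and these had few reads. MIR93 stood at 6.03 RPKM with clusterin and 1.31 in the control, from 16 and 4 reads, the RPKM ratio being 4.61 (1.49 to 18.9). MIR25 had 21 reads with clusterin and 24 in the control, and MIR106B had 5 in each. The host, with 14664 reads with clusterin and 17347 in the control, had a ratio of 0.974 (0.953 to 0.996). These reads come from a library of long RNA and do not measure the mature microRNAs, of which 1 arm per gene is shown from RefSeq, with the seed (bases 2 to 8) in capitals.
hsa-miR-93-5p: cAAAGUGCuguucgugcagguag
hsa-miR-106b-5p: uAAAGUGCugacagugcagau
hsa-miR-25-3p: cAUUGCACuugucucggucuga
The 5p arms of MIR93 and MIR106B share their seed, and the 3p arm of MIR25 has another.

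CDC45, GINS and MCM10 belong to the step that activates the helicase. The median log2 difference of CDC45, the GINS genes and MCM10 was -0.09, and -0.04 rescaled. All 6 lay below 0 as deposited, where 70.2% of measured genes did, and 4 of 6 rescaled, CDC45 and GINS3 changing sign. The intervals of CDC45, GINS3, GINS4 and MCM10 included 1. GINS2 stood at 34.9 RPKM with clusterin and 39.0 in the control, a ratio of 0.895 (0.833 to 0.961). GINS1 stood at 12.2 RPKM with clusterin and 13.8 in the control (1331 and 1735 reads), giving a ratio of 0.884 (0.823 to 0.9501), wholly below the general offset. GINS3 stood at 7.01 RPKM with clusterin and 7.14 in the control and GINS4 at 4.67 RPKM with clusterin and 5.15 in the control. The RNA levels of the GINS subunits thus differed up to 7.47-fold with clusterin and 7.57-fold in the control, and their protein amounts were not measured. CDC45 stood at 11.2 RPKM with clusterin and 11.7 in the control, and MCM10, a scaffold of the firing origin, at 5.15 RPKM with clusterin and 5.45 in the control.

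Polymerase alpha-primase, which lays down the primers, had the lowest median of any complex, -0.14, and -0.07 rescaled. POLA1, the catalytic subunit, stood at 15.4 RPKM with clusterin and 17.3 in the control, from 2780 and 3596 reads, the RPKM ratio being 0.891 (0.848 to 0.936), which lay wholly below the general offset. POLA2, the accessory subunit, stood at 10.5 RPKM with clusterin against 11.9 in the control, for an RPKM ratio of 0.877 (0.802 to 0.959). The primase subunits were PRIM1, at 11.1 RPKM with clusterin and 12.1 in the control, and PRIM2, at 5.60 RPKM with clusterin and 5.73 in the control, and both intervals included 1. Over all reads of the complex, the ratio was 0.898 (0.864 to 0.933). Pooled reads weigh the deepest gene most, here POLA1. With 1 library per group a difference between complexes was not tested.

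The replicative polymerases each had 3 subunits among the genes. Of polymerase delta, which copies the lagging strand, the catalytic POLD1 stood at 20.8 RPKM with clusterin and 20.2 in the control, a log2 difference of 0.04. The accessory POLD2 stood at 61.6 RPKM with clusterin against 66.0 in the control, for an RPKM ratio of 0.934 (0.898 to 0.971), and POLD3 at 8.27 RPKM with clusterin and 8.89 in the control. Of polymerase epsilon, which copies the leading strand, the catalytic POLE stood at 9.87 RPKM with clusterin and 10.1 in the control and the histone-fold subunit POLE3 at 32.4 RPKM with clusterin and 35.4 in the control. POLE2, its accessory subunit, was the lowest of the 45 by difference. It stood at 1.35 RPKM with clusterin and 1.98 in the control, based on 87 and 147 reads. It had a log2 difference of -0.34 and an RPKM ratio of 0.682 (0.517 to 0.895). It was the shallowest of the genes, and 2.78% of measured genes lay lower. The log2 difference of POLE2 was -0.14 with a pseudocount of 5 RPKM, above its own level, and -0.30 with the rescaling, neither past 0.32. With a pseudocount of 0.1 RPKM it was -0.52. The interval of POLE2 lay wholly below the general offset.

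**Figure D4:**
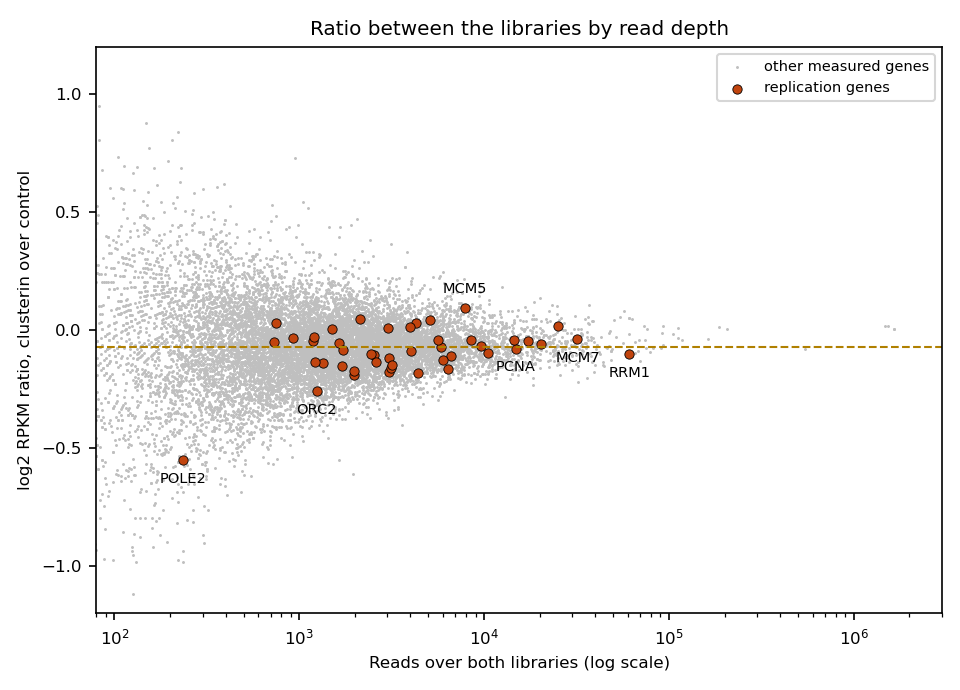
log2 RPKM ratio of clusterin over control (y axis, no pseudocount) against reads over both libraries (x axis, log) for measured genes (grey) and the 45 replication genes (orange), with the median of all measured genes as a dashed line. Of 13199 genes, 716 lie outside the axes. The replication genes lie within the grey cloud at every depth, POLE2 at the shallow end near its lower edge and RRM1 at the deep end.

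PCNA, the sliding clamp, and its loader showed the same pattern of small differences. PCNA stood at 139.6 RPKM with clusterin and 147 in the control, a ratio of 0.947 (0.917 to 0.979), close to the general offset of 0.953. RFC2 stood at 34.1 RPKM with clusterin and 38.7 in the control (1915 and 2504 reads), giving a log2 difference of -0.18 and a ratio of 0.881 (0.830 to 0.936), wholly below the offset. RFC4 stood at 21.7 RPKM with clusterin against 23.9 in the control, for an RPKM ratio of 0.910 (0.841 to 0.984). The other small subunits were RFC5, at 13.3 RPKM with clusterin and 14.3 in the control, and RFC3, at 10.6 RPKM with clusterin and 10.2 in the control. RFC1, the large subunit, stood at 11.1 RPKM with clusterin and 11.8 in the control. Of the 6 genes, RFC3 alone lay above 0, at 0.04. The other 5 were below 0 with the rescaling too, PCNA and RFC1 by little, at -0.01 each, and RFC5 at -0.03. The intervals of PCNA, RFC1, RFC4 and RFC5 included the general offset. PCNA levels carry a limit, since the antisense gene PCNA-AS1 was listed at 254 RPKM with clusterin and 258 in the control, and no strand setting is stated for the counting, which leaves reads of the pair inseparable. The same limit holds for MCM7 with AP4M1, RFC4 with EIF4A2, RFC5 with WSB2 and TYMS with its neighbours. The values of 11 genes are uncertain for another reason, since RefSeq lists pseudogenes named after them, which could share their reads: ORC1, PRIM2, POLD2, PCNA, RFC3, RFC5, RPA2, RPA3, FEN1, RRM2 and TYMS.

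RPA covers single-stranded DNA, and FEN1 and LIG1 finish the lagging strand. RPA1 stood at 30.1 RPKM with clusterin and 31.6 in the control, RPA2 at 15.2 RPKM with clusterin and 17.1 in the control, and RPA3 at 13.3 RPKM with clusterin and 13.2 in the control. RPA2 had a ratio of 0.886 (0.810 to 0.969), and RPA3 one of 1.003 (0.905 to 1.11), with overlapping intervals. FEN1, the flap nuclease that trims Okazaki fragments, stood at 86.9 RPKM with clusterin and 89.4 in the control, a ratio of 0.973 (0.941 to 1.01). LIG1, the ligase that seals them, stood at 13.7 RPKM with clusterin against 15.1 in the control, for an RPKM ratio of 0.904 (0.842 to 0.970).

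Nucleotide supply held the gene with the most reads. RRM1 stood at 258 RPKM with clusterin and 277 in the control, from 27294 and 33770 reads, a log2 difference of -0.10 and a ratio of 0.931 (0.917 to 0.947), wholly below the general offset. Its reads were recovered at a tolerance of 3% on the deposited p-value and not at 1%. In the authors' deposited table its q was 7.81e-16. RRM2, the small subunit whose supply is known to limit the enzyme in S phase, stood at 34.0 RPKM with clusterin against 35.0 in the control, for an RPKM ratio of 0.971 (0.930 to 1.01). TYMS, thymidylate synthase, stood at 26.9 RPKM with clusterin and 26.7 in the control, a ratio of 1.01 (0.938 to 1.08). ENOSF1, which overlaps TYMS on the other strand, stood at 7.52 RPKM with clusterin and 8.69 in the control, and C18orf56, also on the other strand, at 18.2 RPKM with clusterin and 18.9 in the control.

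Of the 39 genes with a promoter sequence, 11 had another gene starting within 1000 bases upstream and running the opposite way. The partners MBD5, of ORC4, and C9orf43, of POLE3, had a mean below 1 RPKM. MCM2 and TPRA1, whose starts lie 180 bases apart, had log2 differences of 0.02 and 0.03. ORC1 and PRPF38A, 179 bases apart, had -0.11 and -0.10. FEN1 and TMEM258, 312 bases apart, had -0.04 and -0.10, at 69.7 RPKM with clusterin and 74.9 in the control for TMEM258. ORC3 and RARS2, 148 bases apart, had -0.04 and 0.03. With the rescaling FEN1 and ORC3 lay above 0. Rescaled values of their partners are not given, so signs within a pair can be compared only as deposited.

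Other genes of replication and of its control, came from a list of 67. Of these, 66 reached a mean of 1 RPKM and E2F8 did not, at 0.448 RPKM in both libraries. None of the 66 was past 0.32 on the log2 scale in either direction. Their median log2 difference was -0.07, with 48 of 66 below 0 (72.7%), against 70.2% of measured genes. The counting interval lay wholly below 1 for 23 and wholly above for 3, where 25.9% and 4.33% of measured genes with reads did. These counts were not set side by side within depth, and the list had a higher median level, 8.01 RPKM, than measured genes, 5.75 RPKM. Against the general offset of 0.953, 12 of the 66 lay wholly below and 8 wholly above. Of measured genes with at least 234 reads, 11.3% lay wholly below it and 12.9% wholly above. The lowest was TICRR, which brings CDC45 to origins, at 4.58 RPKM with clusterin and 5.53 in the control, a log2 difference of -0.23 and a ratio of 0.827 (0.763 to 0.898). RBL2, a retinoblastoma-like repressor, stood at 6.37 RPKM with clusterin and 7.60 in the control, SHMT1, of folate metabolism, at 10.0 RPKM with clusterin and 11.8 in the control, and MCM8 at 6.71 RPKM with clusterin and 7.91 in the control. The highest was TIPIN, a fork protection factor, at 6.05 RPKM with clusterin and 5.31 in the control, a log2 difference of 0.16 and a ratio of 1.14 (0.955 to 1.36) from 257 and 260 reads. RECQL4, a helicase needed for initiation, stood at 16.5 RPKM with clusterin against 14.9 in the control, for an RPKM ratio of 1.11 (1.04 to 1.18), DSCC1 of an alternative clamp loader at 7.41 RPKM with clusterin and 6.72 in the control, and E2F4 at 18.7 RPKM with clusterin and 17.2 in the control. E2F1, an activator of S phase genes, stood at 18.5 RPKM with clusterin and 18.4 in the control.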

How the data were processed

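Per the labels' protocols, RNA of D407 cells was enriched on oligo(dT) beads, fragmented and reverse transcribed from random hexamers. The tools named are Bowtie, TopHat and Cuffdiff, with the build hg19, per the submitters' processing notes, which give neither versions nor the strand setting. The authors deposited 1 level per gene and library, taken here as RPKM, together with each gene's log2 fold, p-value and q-value. No unit of the levels is named in the header. It was read from the values: levels times gene length were whole within 0.02 at 1 total per library for 484 of 522 small RNA genes with clusterin and 488 of 522 in the control. Whole numbers cannot tell reads from read pairs.

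For other genes, the transcript length (40 to 25000 bases) was searched at which both levels were whole reads and the Audic-Claverie p equalled the deposited p-value within 3%. This tolerance was first 1% and was widened after the data were seen, because RRM1 had no reads at 1%; its recovered reads rest on the wider setting. It gave reads for 99.1% of 20642 genes above 0. For 5 of the 45 members (MCM2, MCM7, CDC6, POLE and RPA3) more than 1 length matched, and the closest was used. The RPKM ratio has a 95% exact Clopper-Pearson interval from the clusterin share of reads. As no molecular identifiers are described, several reads may stem from 1 molecule, and intervals cover counting error only. Depth was 33.2 reads per RPKM and kilobase with clusterin and 38.2 in the control.

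Differences used a pseudocount of 1 RPKM over genes whose mean reached 1 RPKM, a scale that understates changes of low genes. The members and lists were chosen with earlier results of these data known. All members are named; of the other list, the 4 lowest and 4 highest are named, with E2F8 and E2F1 added after their values were seen. Promoter motifs are exact matches on both strands; the promoters printed were chosen after the values were seen. Gene coordinates in the table mix builds: 44 of the 45 members start within 2000 bases of their RefSeq position on GRCh38 (PRIM2 does not), and only overlapping genes whose start or end matches GRCh38 were used, a filter set and then loosened after the data were seen. Of the 45, 11 have a RefSeq pseudogene named after them, and how reads from such copies were counted was not given. The steps were tested on simulated data. Python 3.11.15, scipy 1.17.1 and pandas 2.3.3 were used. Alternatives were other pseudocounts (0.1 and 5 RPKM), filters, scaling, interval levels, q thresholds, motif windows, and leaving out overlapped genes or genes with pseudogenes; the last pair, the 1% tolerance and the backgrounds by depth were chosen after seeing the data.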

Additional observations from a re-analysis of the deposited data

How the results depend on the processing

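No paired analysis was possible because each group has 1 library, and no library could be left out. No replication gene passed 2-fold under any of the 5 alternatives of pseudocount, filter and scaling. The single gene past 0.32 on the log2 scale was POLE2, at a mean of 1.66 RPKM. A filter of 5 RPKM leaves POLE2 out, and a pseudocount of 5 RPKM, above its level, shrinks its difference. Its log2 difference was -0.52 with a pseudocount of 0.1 RPKM and -0.30 with the rescaling. Thus 0 genes counted with a pseudocount of 5 RPKM, with a mean of at least 5 RPKM, or with clusterin rescaled to a median of 0. That rescaling also moved the intervals wholly below 1 to 6 genes and those wholly above 1 to 5, against 21 and 1, because it shifts every gene alike. With 99% intervals, 15 genes lay wholly below 1 and 1 above. With the first tolerance of 1% on the p-value, 44 genes had reads, all but RRM1, and 20 lay wholly below 1 and 1 above. A q below 0.01 in the authors' deposited table was held by 4 of the 45 genes, against 15 below 0.05. Shares of all genes at a q below 0.01 or with 99% intervals are not given here. Counts at these 2 settings thus show only how the calls depend on the threshold. The median log2 difference lay between -0.08 with a pseudocount of 0.1 RPKM and -0.01 with the rescaling. It was -0.07 over the 40 genes not overlapped on the other strand by a gene of at least 1 RPKM, and -0.07 over the 34 without a named pseudogene. The share of member promoter sequences with an E2F motif was 37.3% also with 150 bases before the start. Of single genes, 11 moved by more than their counting error with the rescaling. As it shifts every gene alike, these were genes with narrow intervals. None moved with the other pseudocounts, and a filter cannot change the value of a single gene. Depth limits POLE2 most, where 87 reads with clusterin and 147 in the control leave a wide interval.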
